A study of Rattus norvegicus with 48 samples.

Results

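The enzymes of fatty acid synthesis Acly, Acaca, Fasn and Scd, were followed through the fat tissue of rats that were sedentary or exercised at 1 of 2 times of their active phase. The 4 genes were taken by their Ensembl IDs (ENSRNOG00000016924 for Acly, ENSRNOG00000034013 for Acaca, ENSRNOG00000045636 for Fasn and ENSRNOG00000013552 for Scd) from a table of 23481 gene IDs, and all 4 passed the filter on low counts in every fit. RNA had been sequenced from the subcutaneous (SAT) and the visceral (VAT) adipose tissue of 24 male adolescent rats on postnatal day 61, 24 h after the last exercise session. The groups were early active phase control (EAC) and early active phase exercise (EAE), which belong to zeitgeber time 13 (hours after lights on), and late active phase control (LAC) and late active phase exercise (LAE), which belong to zeitgeber time 23. Controls were sedentary. Each group held 6 rats with both depots, which gave 48 libraries. The sources used here do not give the strain, the kind and duration of the exercise, or the region of the visceral fat. Early and late groups were different rats, so the time of day and any handling that differed between these groups cannot be told apart.

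These enzymes form the de novo lipogenesis pathway, which turns carbon from glucose into fatty acids. Acly (ATP citrate lyase) splits citrate in the cytosol to give acetyl-CoA, Acaca (acetyl-CoA carboxylase alpha) carboxylates it to malonyl-CoA in the committed step, Fasn (fatty acid synthase) joins these units into palmitate, and Scd (stearoyl-CoA desaturase) puts a double bond into saturated fatty acyl-CoA. In fat tissue and liver the genes are known targets of SREBP-1c and ChREBP, transcription factors that respond to insulin and to glucose. In rats feeding falls mostly in the dark, active phase.

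RefSeq promoter sequences (assembly GRCr8, 250 bases before to 50 bases after the start of the gene) were at hand for 2 of the 4 members by symbol, Acly and Scd. They are shown because the ratio of these 2 genes is followed between the phases below. The Acly window lies at chr10:85963582-85963881 on the minus strand and the Scd window at chr1:253231682-253231981 on the minus strand. Both are printed 5′ to 3′ in the direction of the gene, with motif matches in capitals.
Acly: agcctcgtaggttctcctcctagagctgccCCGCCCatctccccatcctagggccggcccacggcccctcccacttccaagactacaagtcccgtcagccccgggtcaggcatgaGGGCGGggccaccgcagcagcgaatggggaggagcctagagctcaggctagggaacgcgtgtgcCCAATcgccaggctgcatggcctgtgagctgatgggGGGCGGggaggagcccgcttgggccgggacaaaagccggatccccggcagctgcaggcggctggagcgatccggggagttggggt
Scd: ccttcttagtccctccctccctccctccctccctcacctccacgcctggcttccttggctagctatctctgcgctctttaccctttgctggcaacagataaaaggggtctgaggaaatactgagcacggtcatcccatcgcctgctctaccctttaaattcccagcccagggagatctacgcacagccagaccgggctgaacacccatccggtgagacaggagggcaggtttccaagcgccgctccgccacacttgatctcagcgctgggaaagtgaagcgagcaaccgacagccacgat
The capitals mark the CCAAT box (CCAAT) and the GC box (GGGCGG), both searched on either strand. The Acly window held 1 CCAAT box, as 37.5% of 33469 promoter windows of the same length did, and 3 GC boxes, of which 2 read GGGCGG and 1 is on the other strand as CCGCCC; at least 1 GC box was found in 33.1% of windows. The Scd window held neither. The E-box CACGTG, found in 6.42% of windows, had 0 matches in both. The GC content was 69.0% for Acly and 58.3% for Scd. A match is a run of letters and not a measured site.

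The libraries held 13163675 to 17890033 estimated counts (median 15576425), and the lowest count of any of the 4 genes in any library was 5166, so counting error was small beside the spread between rats. Levels are given as CPM, the count scaled by the library's total, with totals adjusted by TMM (trimmed mean of M values). Transcript lengths were not used, so levels are compared between groups and not between genes. In SAT, LAE replicates 4 and 6 stood apart, with a median Spearman correlation with the other SAT libraries of 0.8659 and 0.87 against 0.96 to 0.979 for the other 22. In VAT, EAC replicate 5 (0.9564) and EAE replicate 3 (0.9521) did so, against 0.98 to 0.985 for the other 22. Results that rest on these libraries are given with and without them. Scd has a close paralog, Scd2, and 50-nt reads may be split between such copies, so the Scd values carry that uncertainty. Whether counting used strand is not given in the sources used here, so reads of overlapping antisense genes cannot be told apart. No table pairs the other IDs with symbols, so the lists for other lipid pathways and for cell type markers, and with them a check of the labelled tissues, were not analysed here. In whole tissue, fewer cells of a type and less RNA per cell cannot be told apart.

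The 4 enzymes took a large part of the counts of these libraries, more so in VAT. Together they took 8.87% ± 2.15 of all counts in VAT (SD, n = 24), from 4.05% in LAC replicate 4 to 12.6% in EAC replicate 3. In SAT they took 3.02% ± 1.51 (SD, n = 24), from 0.783% to 6.44%. Scd alone took 6.23% ± 1.57 of the counts in VAT and 1.83% ± 1.07 in SAT, and reached 9.28% in VAT EAC replicate 3. The libraries of a depot differed widely. The fold between the highest and the lowest share was 3.1 in VAT and 8.22 in SAT.

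All 4 enzymes were higher in VAT than in SAT, in sedentary and in exercised rats alike. The calls counted here are genes at an adjusted p under 0.05 in edgeR's quasi-likelihood test, adjusted over all genes by Benjamini and Hochberg. The depot is a common difference in these data, so the count of members reads against a high background: 43.3% of 14693 tested genes were called in either direction in sedentary rats (21.6% higher in VAT), and 50.3% in exercised rats (23.0% higher in VAT).

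Acly in sedentary rats had a median of 1215 CPM in SAT (503 to 2578, n = 12) and of 5002 CPM in VAT (1676 to 7751, n = 12). The ranges overlapped, and 9 of 12 VAT libraries lay above every SAT library. The difference was 3.6-fold (log2 1.85 ± 0.30 SE, adjusted p = 3.98e-06, edgeR). In exercised rats the SAT libraries held 569 to 4954 CPM of Acly and the VAT libraries 2052 to 11853 CPM, a 3.38-fold difference (log2 1.76 ± 0.30 SE, adjusted p = 7.82e-06, edgeR).

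For Acaca, the median of the sedentary libraries was 890.3 CPM in SAT (372 to 1564) and 2537 CPM in VAT (1237 to 3179). This was 2.63-fold higher in VAT (log2 1.39 ± 0.26 SE, adjusted p = 2.52e-05, edgeR). In exercised rats the fold was 2.74 (log2 1.45 ± 0.26 SE, adjusted p = 1.27e-05, edgeR), with 11 of 12 SAT libraries below every VAT library.

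Fasn had the smallest fold of the 4 between the depots, although these folds were not tested against each other. Its sedentary median was 6973 CPM in SAT (2746 to 12024) and 19814 CPM in VAT (9951 to 26880). The difference was 2.47-fold in sedentary rats (log2 1.31 ± 0.22 SE, adjusted p = 4.95e-06, edgeR) and 2.17-fold in exercised rats (log2 1.12 ± 0.22 SE, adjusted p = 4.58e-05, edgeR).

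Scd, the desaturase, had the largest fold. In sedentary rats its median was 15016 CPM in SAT (3556 to 37506) and 70174 CPM in VAT (23196 to 106433), which was 4.01-fold higher (log2 2.01 ± 0.36 SE, adjusted p = 1.67e-05, edgeR). In exercised rats all 12 VAT libraries (43551 to 94353 CPM) lay above all 12 SAT libraries (1513 to 34327 CPM), a separation that 1.37% of tested genes showed. The fold there was 3.72 (log2 1.90 ± 0.36 SE, adjusted p = 3.33e-05, edgeR). Without the 4 libraries that stood apart, the exercised folds were 3.18 for Scd, 2.92 for Acly, 2.39 for Acaca and 2.09 for Fasn, and all remained called.

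The depot difference was also seen inside each rat, taking libraries of a group with the same replicate number as one rat. According to the labels each group had 6 rats with both depots sampled, but they do not say that the number names the rat. VAT was above SAT in 24 of 24 rats for each of the 4 genes, which 600 of 14693 tested genes (4.08%) showed. The mean log2 difference within rats was 1.91 ± 0.62 for Acly, 1.57 ± 0.66 for Acaca, 1.28 ± 0.42 for Fasn and 2.24 ± 1.02 for Scd (SD, n = 24). Without the rats that had a library that stood apart it was 1.81 ± 0.35, 1.44 ± 0.34, 1.35 ± 0.38 and 2.03 ± 0.48 (SD, n = 20). The depot fits above did not pair the depots of a rat. With a block for the rat the sedentary log2 differences were 1.86 ± 0.17 for Acly, 1.46 ± 0.18 for Acaca, 1.35 ± 0.13 for Fasn and 2.12 ± 0.29 for Scd (SE, edgeR). Scaling by library totals alone in place of TMM moved the median log2 difference of all genes by -0.153 in the sedentary and -0.166 in the exercised depot comparison. With it the folds of the members were lower, from 1.93 for Fasn in exercised rats to 3.55 for Scd in sedentary rats, and all 8 remained called.

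**Figure D1:**
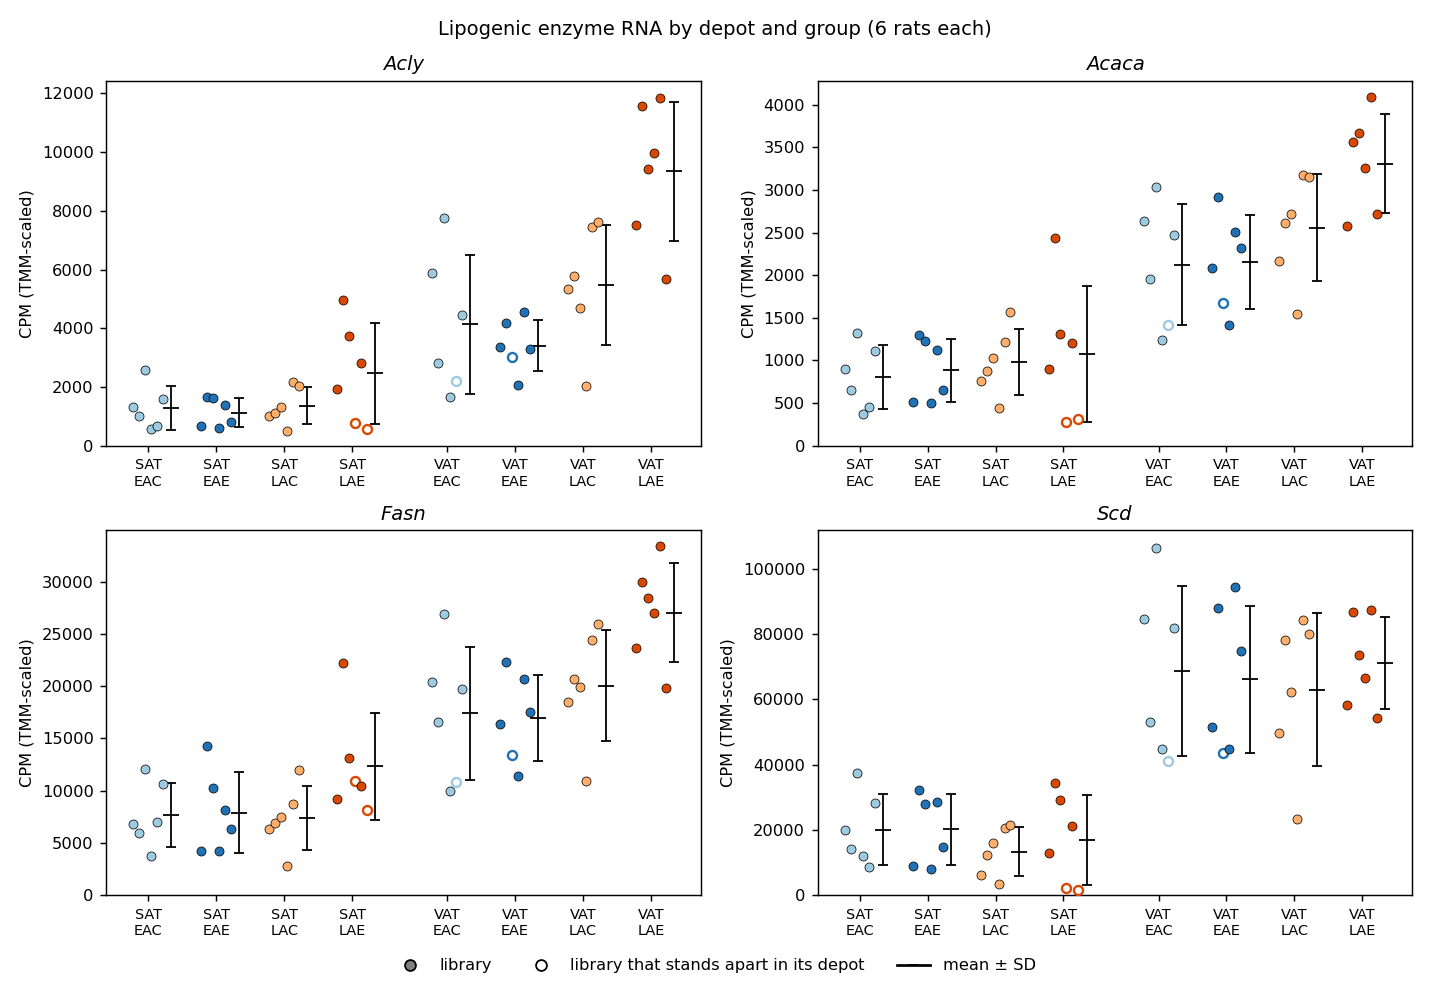
Level of each enzyme in every library, in TMM-scaled CPM, by depot and group, with 6 rats per group; bars are the mean ± SD and open circles are libraries that stood apart in their depot. For each gene the means of the 4 VAT groups lie above those of the 4 SAT groups, and the VAT LAE group has the highest mean, at 9340 CPM for Acly and 71069 CPM for Scd.

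Ordered by mean level, the 4 SAT groups came below the 4 VAT groups for every member, and the highest group was VAT LAE each time. Neighbours in that order always overlapped in their ranges. For Fasn the order ran from SAT LAC (7382 ± 3033 CPM), SAT EAC (7707 ± 3059), SAT EAE (7900.3 ± 3899) and SAT LAE (12324 ± 5118) to VAT EAE (16942 ± 4155), VAT EAC (17379 ± 6385), VAT LAC (20033 ± 5286) and VAT LAE (27034 ± 4764; SD, n = 6 each). The Scd means of the VAT groups lay close together, from 62900 ± 23384 CPM in LAC to 71069 ± 14024 CPM in LAE. The Acly means in VAT were 3413 ± 880 CPM in EAE, 4130 ± 2356 in EAC, 5476 ± 2050 in LAC and 9340 ± 2380 in LAE.

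The time of day was read first in sedentary rats, comparing LAC with EAC. None of the 4 enzymes passed in either depot, where 3.22% of 14372 tested genes were called in SAT and 11.3% of 13883 in VAT (edgeR). In VAT the log2 differences, late minus early, were 0.41 ± 0.32 for Acly, 0.27 ± 0.21 for Acaca, 0.20 ± 0.23 for Fasn and -0.13 ± 0.28 for Scd (SE). In SAT they were 0.08 ± 0.48, 0.29 ± 0.45, -0.06 ± 0.36 and -0.59 ± 0.62 in the same order. The ranges of all 4 overlapped between the phases in both depots, while 6.21% of tested genes in SAT and 6.06% in VAT did not overlap. In SAT the intervals of 2 SE were wide, as from -1.83 to 0.66 for Scd, so sizeable changes in either direction lay within them. In VAT the interval of Acly ran from -0.24 to 1.05, so a sizeable rise but only a small fall lay within it. The test of whether the phase difference itself differed between depots called none of the 4 (0% of 14693 genes with edgeR, where 843 had an unadjusted p under 0.05; DESeq2 called 24 and limma voom 74).

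In VAT of exercised rats Acly, Acaca and Fasn were higher late. Comparing LAE with EAE, these 3 passed and Scd did not. That is 3 of 4 members, where 21.0% of 13883 tested genes were called in either direction and 10.3% were higher late (edgeR).

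Acly ran from 2052 to 4545 CPM in VAT EAE (median 3344) and from 5685 to 11853 CPM in VAT LAE (median 9697). All 6 late libraries lay above all 6 early ones, as happened for 8.01% of tested genes in either direction. The fold was 2.72 (log2 1.44 ± 0.33 SE, adjusted p = 0.00277, edgeR). It passed in all 21 alternative fits and left-out libraries, with adjusted p-values of 7.79e-05 to 0.00871 (edgeR, DESeq2 and limma).

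Fasn ran from 11422 to 22318 CPM in VAT EAE (median 16938) and from 19825 to 33355 CPM in VAT LAE (median 27717). The groups overlapped, with 5 of 6 late libraries above every early one. The fold was 1.58 (log2 0.66 ± 0.23 SE, adjusted p = 0.0387, edgeR).

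Acaca ran from 1421 to 2916 CPM in VAT EAE (median 2202) and from 2572 to 4086 CPM in VAT LAE (median 3407), with 4 of 6 late libraries above every early one. The fold was 1.53 (log2 0.61 ± 0.21 SE, adjusted p = 0.0416, edgeR). The Fasn and Acaca calls were close to the threshold. Both were lost when any of EAE replicates 1, 3, 4 and 6 or LAE replicates 2, 3, 4 and 5 was left out. The adjusted p then reached 0.094 for Fasn and 0.103 for Acaca (edgeR). In the fit of 4 groups both were also lost without the pair of VAT libraries that stood apart (adjusted p = 0.056 and 0.0672, edgeR). Both passed without that pair when only these 2 groups were fitted (adjusted p = 0.0254 and 0.0359, edgeR). That 2-group fit was added after the data had been seen.

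Scd ran from 43551 to 94353 CPM in VAT EAE (median 63242) and from 54275 to 87318 CPM in VAT LAE (median 69974). No late library lay above every early one. The log2 difference was 0.09 ± 0.28 (SE, adjusted p = 0.854, edgeR), with an interval of 2 SE from -0.47 to 0.66.

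In SAT none of the 4 passed between LAE and EAE with all libraries, where 17.3% of 14372 genes were called (edgeR). That background was 1763 of 14505 genes without the libraries that stood apart, and 383 with only these 2 groups and all libraries. With only these 2 groups and without the libraries that stood apart it was 722 of 13965 genes. Acly ran from 621 to 1659 CPM early (median 1099). Its late values were 1927, 4954, 3731, 759, 2822 and 569 CPM in replicates 1 to 6, so that 4 of 6 late libraries lay above every early one and the others, replicates 4 and 6, are the libraries that stood apart. The log2 difference was 1.11 ± 0.48 (SE, adjusted p = 0.108, edgeR). Without those 2 libraries it was 1.57 ± 0.42 (adjusted p = 0.0178, edgeR), a 2.97-fold change. With only these 2 groups fitted it passed without those libraries (adjusted p = 0.0271, edgeR) but not with all libraries (0.216). The 2-group fit without those libraries was added after the data had been seen. Fasn (log2 0.63 ± 0.36), Acaca (0.27 ± 0.45) and Scd (-0.26 ± 0.62) did not pass with all libraries, nor without them, when the values were 0.80 ± 0.38, 0.73 ± 0.38 and 0.28 ± 0.50 (SE).

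**Figure D2:**
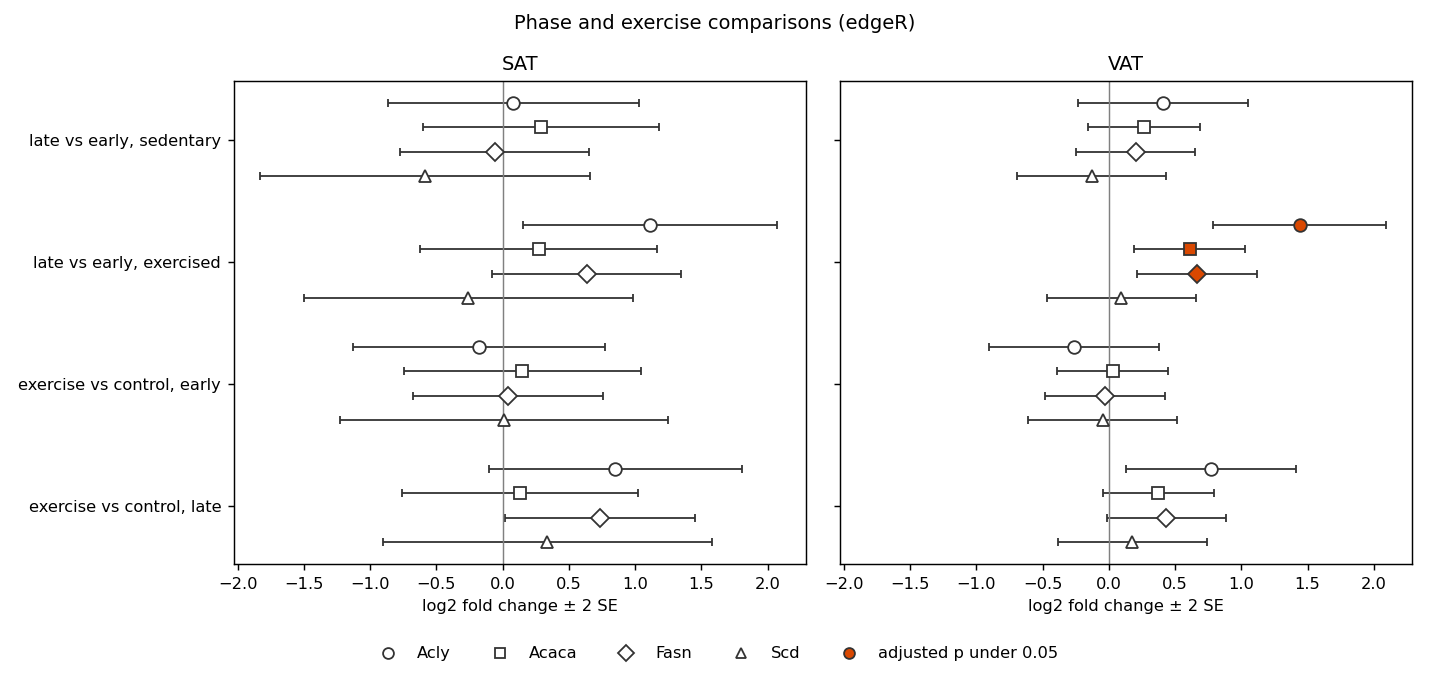
Log2 fold change ± 2 SE of each enzyme (edgeR) in SAT and VAT for late against early and exercise against control, 6 rats per group; filled symbols have an adjusted p under 0.05. The 3 filled symbols are Acly (1.44), Fasn (0.66) and Acaca (0.61) in VAT of exercised rats.

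Exercise itself was compared with sedentary control within each phase. These comparisons share their libraries with the phase comparisons above. At the early phase none of the 4 enzymes passed in either depot, and neither did any other gene (0% of 14372 in SAT and 0% of 13883 in VAT with edgeR). At an unadjusted p under 0.05 stood 131 genes in SAT and 345 in VAT, DESeq2 called 18 and 2, and limma voom 0 in each. The members' log2 differences lay between -0.26 ± 0.32 (Acly in VAT) and 0.15 ± 0.45 (Acaca in SAT; SE).

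At the late phase none of the 4 passed either. In VAT, where 0% of 13883 genes were called by edgeR (1557 had an unadjusted p under 0.05; DESeq2 called 31 and limma voom 200), Acly ran from 2032 to 7611 CPM in LAC (median 5551) against 5685 to 11853 CPM in LAE, with 4 of 6 exercised libraries above every control. The log2 difference was 0.77 ± 0.32 (SE, adjusted p = 0.375, edgeR), with an interval of 2 SE from 0.13 to 1.42. Fasn (0.43 ± 0.23), Acaca (0.37 ± 0.21) and Scd (0.18 ± 0.28) had smaller values.

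In SAT at the late phase 11.5% of 14372 genes were called with all libraries. This background was 310 of 14505 genes without the libraries that stood apart, and 0 genes when only these 2 groups were fitted. Fasn ran from 2746 to 12005 CPM in LAC (median 7207) and from 8111 to 22179 CPM in LAE (median 10666). Its log2 difference was 0.74 ± 0.36 (SE, adjusted p = 0.167, edgeR). That of Acly was 0.85 ± 0.48 (adjusted p = 0.228) and, without the libraries that stood apart, 1.31 ± 0.42 (adjusted p = 0.0897, edgeR). The values for Scd (0.34 ± 0.62) and Acaca (0.13 ± 0.45) were smaller with all libraries. Without the libraries that stood apart, Fasn (0.90 ± 0.38), Scd (0.87 ± 0.49) and Acaca (0.58 ± 0.38; SE) did not pass either.

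An interaction term asked whether the exercise difference depended on the phase, and no member passed in SAT or VAT. Neither did any other gene by edgeR (0% in SAT and 0% in VAT). The unadjusted p was under 0.05 for 2411 and 975 genes, DESeq2 called 268 and 1, and limma voom 1 and 0. Acly had the largest value among the members in each depot, 1.03 ± 0.67 in SAT (adjusted p = 0.43, edgeR) and 1.04 ± 0.46 in VAT (adjusted p = 0.675, edgeR). So the late rise of Acly in VAT of exercised rats was not shown to differ from the value of 0.41 in sedentary rats. The late exercise difference was not shown to differ between depots for any member (0% of 14693 genes with edgeR, where 2464 had an unadjusted p under 0.05; DESeq2 called 199 and limma voom 0).

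The balance between Acly and Scd differed between the phases in both depots. Within a library, the count of Acly was divided by the count of Scd, so that what raises or lowers both in 1 rat cancels. These ratios were chosen after the levels had been seen and are given as a description, with no test. Gene length cancels in a comparison of ratios between groups. The shares of genes given beside the ratios depend on how closely a gene follows the gene it is divided by. A gene that does not follow it carries that gene's spread in its ratio.

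The log2 ratio of Acly to Scd in VAT of sedentary rats ran from -4.74 to -3.78 early (median -4.21) and from -3.76 to -3.22 late (median -3.51). All late libraries were above all early ones, by a narrow gap, and the mean ratio was 1.57-fold higher late. In VAT of exercised rats it ran from -4.50 to -3.85 early and from -3.26 to -2.74 late, 2.47-fold higher on average and again with no overlap. Among genes at 5 CPM or more, the ratio to Scd was higher late with no overlap for 0.327% in sedentary and 0.817% in exercised rats.

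SAT showed the same order. In sedentary rats the ratio ran from -4.36 to -3.69 early and from -3.60 to -2.58 late, 1.72-fold higher, with no overlap (0.268% of genes). In exercised rats it ran from -4.35 to -3.69 early and from -2.97 to -1.41 late, 3.22-fold higher, with no overlap (0.127% of genes). Without the 2 SAT libraries that stood apart the late exercised ratios ran from -2.97 to -2.76. Of 10910 genes at 5 CPM or more, 6 (0.055%), Acly among them, had ratios to Scd that were higher late with no overlap in all 4 comparisons. Acly followed Scd closely within groups (r = 0.965 in SAT and 0.91 in VAT), so this share is no measure of how rare a phase difference is. Both depots came from the same rats, so these are not 4 independent sets. The levels behind the ratios also differed. In sedentary SAT the late minus early log2 differences were 0.08 ± 0.48 for Acly and -0.59 ± 0.62 for Scd (SE). In VAT of exercised rats they were 1.44 ± 0.33 for Acly and 0.09 ± 0.28 for Scd (SE).

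The ratios of Acaca and Fasn to Scd were also higher late on average, in VAT by less than that of Acly. In VAT of exercised rats both ratios were higher late with no overlap, 1.41-fold for Acaca and 1.46-fold for Fasn. In VAT of sedentary rats they were 1.37-fold and 1.32-fold higher with overlapping ranges. In SAT of sedentary rats the ratio of Acaca to Scd was 2.0-fold higher late with no overlap, and that of Fasn 1.5-fold higher with overlap. In SAT of exercised rats both overlapped (1.79-fold and 2.91-fold higher late, with the libraries that stood apart the highest). Without these libraries both still overlapped, and the mean log2 ratio was -4.07 late and -4.41 early for Acaca to Scd, and -0.83 late and -1.29 early for Fasn to Scd. The ratio of Acly to Fasn was 1.69-fold higher late in VAT of exercised rats with no overlap (0.207% of genes), and overlapped in the other phase comparisons with all libraries. In SAT of exercised rats the overlap came from the libraries that stood apart, without which it ran from -2.25 to -1.82 late against -3.11 to -2.54 early.

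The middle pair of the pathway stayed in near-constant proportion in VAT. The log2 ratio of Acaca to Fasn ran from -3.20 to -2.82 over all 24 VAT libraries (mean -3.00 ± 0.09 SD), while Fasn itself ranged 3.35-fold. In SAT it ran from -5.29 to -2.64 (-3.29 ± 0.59 SD, n = 24) and from -3.96 to -2.64 without the libraries that stood apart (-3.13 ± 0.27 SD, n = 22). Between exercised and control rats the ratios to Scd overlapped in both depots and at both phases. The ratios to Fasn overlapped too except that of Acaca in late SAT, with -5.29 to -3.12 in LAE below -3.06 to -2.64 in LAC, a lower ratio to Fasn with no overlap that 2.04% of genes showed. Without the libraries that stood apart it ran from -3.35 to -3.12 in LAE, still below the controls.

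The ratio of Acly to Acaca, consecutive steps of the pathway, separated exercised from control rats in SAT at both phases, in opposite directions. At the early phase its log2 value ran from 0.29 to 0.41 in EAE, below 0.51 to 0.96 in EAC, a ratio of 0.817 to that of the controls. Acly was the only one of 10782 genes (0.00927%) whose ratio to Acaca was lower there with no overlap. Acly followed Acaca closely within SAT groups (r = 0.98), and genes that follow it less carry more of Acaca's spread in their ratio. That share is therefore no measure of how rare an exercise difference is. At the late phase the log2 ratio of Acly to Acaca ran from 0.87 to 1.51 in LAE, above 0.19 to 0.83 in LAC. It was 1.71-fold higher, with no overlap (4 of 10981 genes, 0.0364%). The gaps were narrow at both phases, and without the libraries that stood apart LAE ran from 1.02 to 1.51. In VAT the ratio overlapped between exercised and control rats at both phases (0.891-fold early and 1.37-fold late). Between the phases of exercised rats it was higher late with no overlap in SAT (1.8-fold, 0.0727% of genes) and in VAT (1.75-fold, 0.197%), and it overlapped in sedentary rats in both depots. This ratio was singled out after its values were seen, from many ratio comparisons. Neither its separation of exercised from control rats nor its difference between the phases was tested. By level, neither Acly nor Acaca passed for exercise in SAT at either phase.

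**Figure D3:**
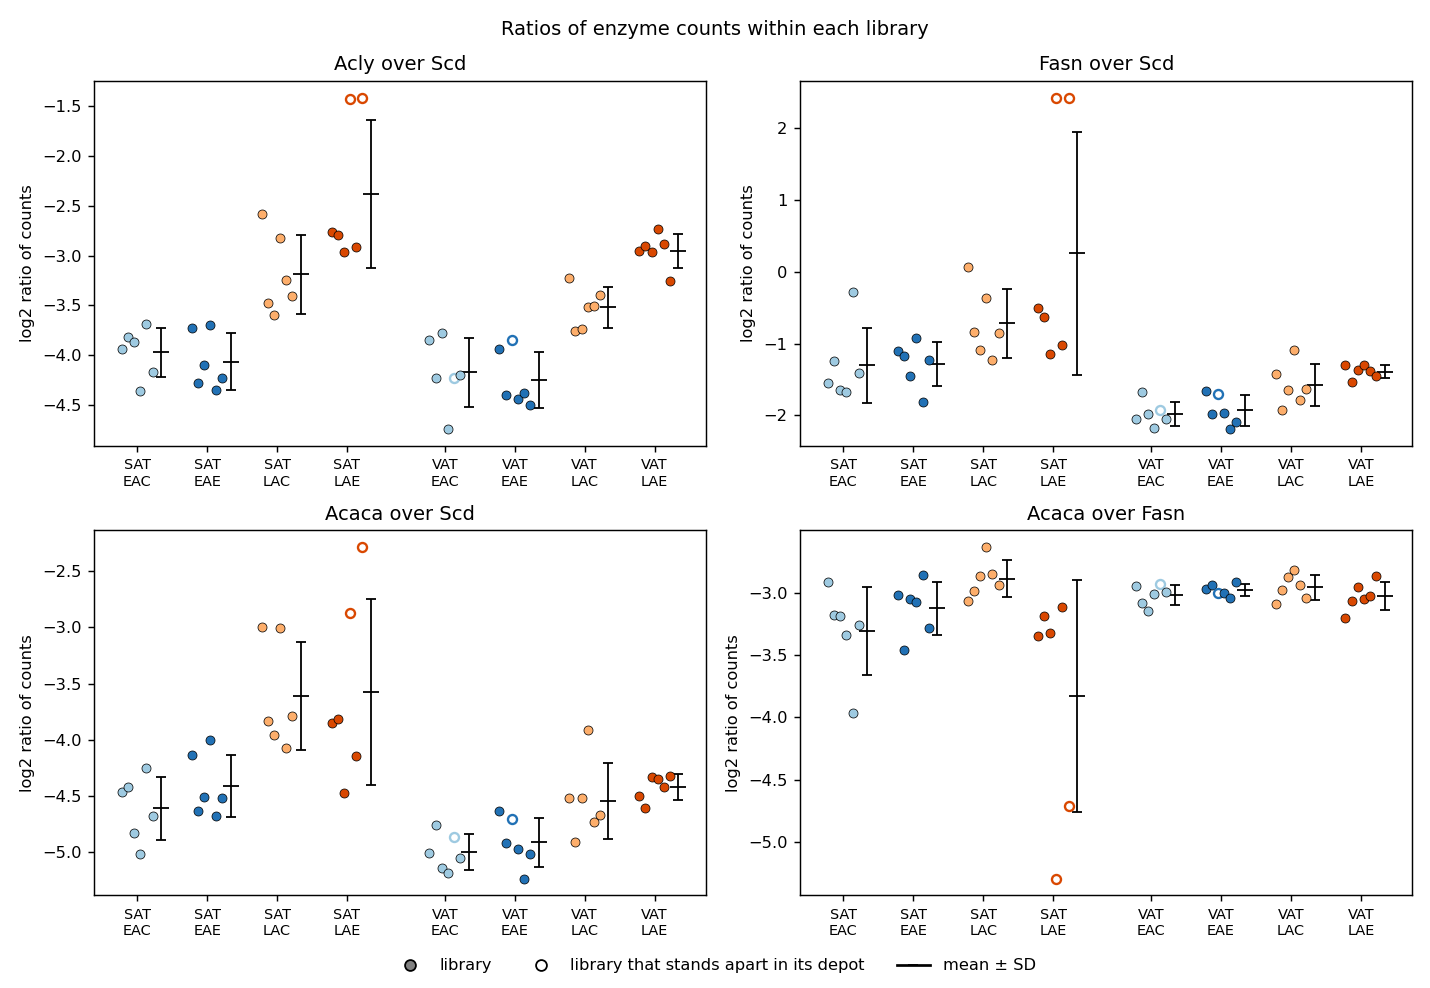
Log2 ratio of the counts of 2 enzymes within each library, by depot and group, with 6 rats per group; bars are the mean ± SD and open circles are libraries that stood apart. Acly over Scd is higher in every late group than in the early group of the same depot and activity, with no overlap (for example -3.26 to -2.74 against -4.50 to -3.85 in VAT of exercised rats), while Acaca over Fasn stays between -3.20 and -2.82 in VAT.

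The pair of SAT libraries that stood apart, LAE replicates 4 and 6, had an unusual balance of the 4 enzymes. Their Scd was the lowest of all SAT libraries, at 2041 and 1513 CPM, and so was their Acaca, at 279 and 311 CPM. Fasn in the same libraries, at 10893 and 8111 CPM, was within the range of the other SAT libraries. The log2 ratio of Fasn to Scd was thus 2.42 in both, against at most 0.07 in the other 22 SAT libraries. In VAT of the same replicate numbers Scd stood at 66358 and 54275 CPM, and the VAT libraries showed no such balance. SAT EAC replicate 5 had the highest ratio of Fasn to Scd of its group (-0.29, against a group median of -1.48), with a ratio of Acaca to Fasn of -3.96.

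Within groups, the 4 enzymes varied together from rat to rat. As log2 CPM minus the group mean, each of the 6 pairs of members was correlated over the 24 VAT libraries with Pearson's r between 0.91 and 0.978. In SAT the pairs without Fasn had r between 0.958 and 0.98. The 3 SAT pairs with Fasn were lower, at 0.796 for Acaca, 0.806 for Acly and 0.708 for Scd, and were 0.936, 0.917 and 0.881 without the 2 libraries that stood apart. Spearman's rho for these 3 pairs was 0.847, 0.825 and 0.757, and r without the 2 libraries farthest from the median of Fasn was 0.787, 0.789 and 0.674. The adjusted permutation p-values were 5.0e-05 or less for all 12 pairs, and most stood at the smallest that the permutations can give. The points share their libraries and the scaling of each library.

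A rat's depots also varied together. The deviations of SAT and VAT correlated over 24 rats at r = 0.746 for Acly (rho 0.722), 0.661 for Acaca (rho 0.711), 0.748 for Fasn (rho 0.744) and 0.655 for Scd (rho 0.671). The adjusted permutation p-values of r over these 4 relations were 6.0e-05, 2.7e-04, 2.7e-04 and 6.0e-05. Rats were permuted within their groups, so the spread of permuted values differs between genes and p need not follow r. Without the 2 rats farthest from the median in SAT, r was 0.812, 0.743, 0.658 and 0.747. Without the 4 rats that had a library that stood apart, r was 0.881, 0.869, 0.855 and 0.914 (n = 20). An example of a low rat was LAC replicate 4, which had the lowest Scd of the 24 VAT libraries (23196 CPM) and the lowest of the 22 other SAT libraries (3556 CPM).

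**Figure D4:**
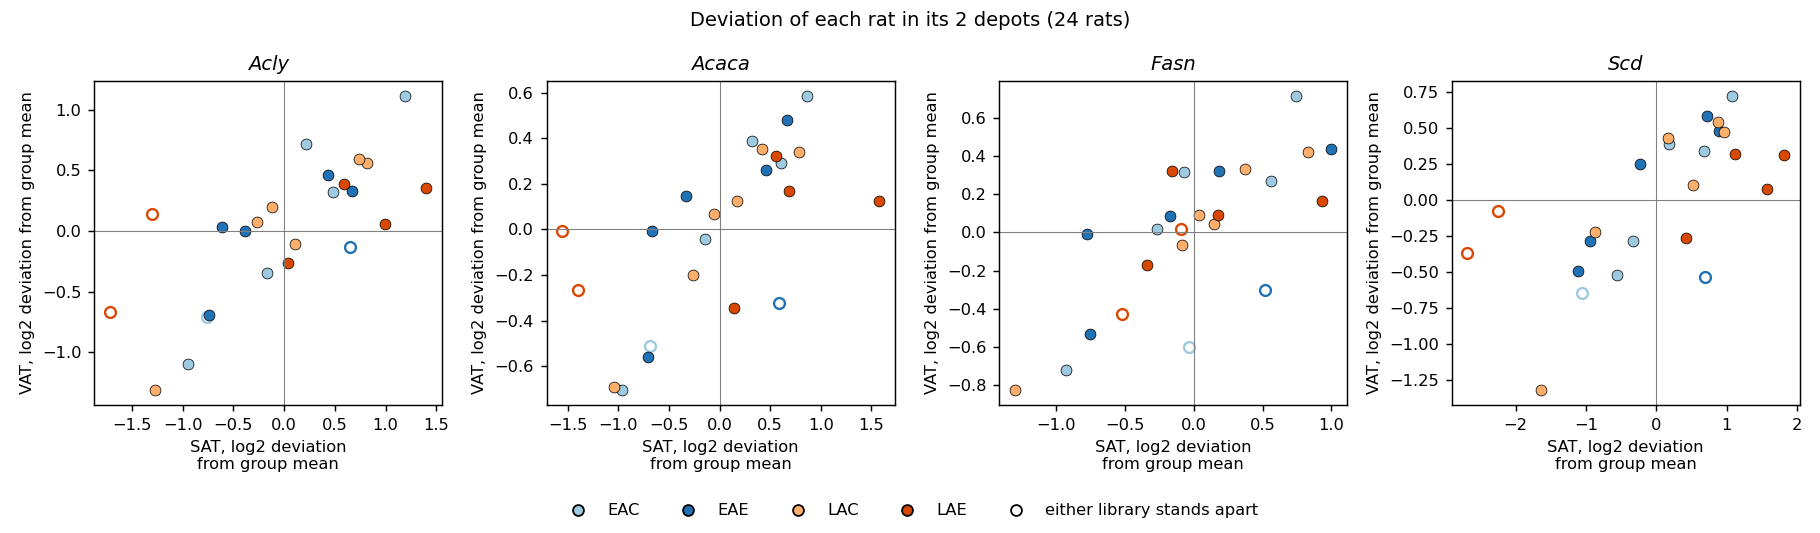
Deviation of each rat from its group mean (log2 CPM) in SAT on the horizontal and in VAT on the vertical axis, for 24 rats taken by replicate number; open circles are rats with a library that stood apart. For each enzyme rats that were high in SAT tended to be high in VAT, with r from 0.655 (Scd) to 0.748 (Fasn).

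The genes most like the 4 enzymes were sought by the correlation of their log2 CPM with the mean z-score of the members over the 24 libraries of a depot, among genes at 5 CPM or more. In SAT these were ENSRNOG00000048949 (r = 0.966) and ENSRNOG00000009715 (r = 0.963) of 11064 genes. In VAT they were ENSRNOG00000009715 again (r = 0.975) and ENSRNOG00000019372 (r = 0.971) of 10706 genes. Without the libraries that stood apart ENSRNOG00000009715 came first in both depots (r = 0.972 and 0.978). The table does not pair these IDs with symbols.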

How the data were processed

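Per the labels' protocols, polyA RNA of both depots gave single-end reads of 50 nt. The deposited values are Salmon-type estimated counts, whole numbers for each gene ID; the submitters' processing notes name Salmon 1.4.0 and the build rn6, and the annotation release is not given in the sources used here. Counts were used as deposited and edgeR 4.0.16 (R 4.3.3) was applied (TMM, filterByExpr, a quasi-likelihood model of 1 depot's 4 groups or of all 8, Benjamini-Hochberg adjustment at 0.05). The common biological coefficient of variation came to 36.0% (SAT), 21.1% (VAT) and 30.6% (both). Standard errors are the log2 change over the square root of F. The fits were tested on simulated counts.

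The members and lists were chosen with earlier results of these data known. The rule for named genes took the 4 members, the 2 genes per depot most like them and, by symbol, other lipid pathways; of 47357 reference rows 0 carry an Ensembl ID, so those lists and the marker lists were not analysed here.

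A library was said to stand apart if its median Spearman correlation fell short of the depot's by more than 5 median absolute deviations. Log2 CPM used a prior count of 2, and correlations 100000 permutations. Labels describe separate rats, and all 120 within-group pairs differed by more than sampling noise. Same numbers between depots gave deviations over all genes that correlated at -0.127 to 0.299, above 0.1 in 17 of 24 rats. Over all genes, 16 of 24 rats matched their own other depot best within their group. Over the genes that followed the rat best, chosen by the same pairing in the other rats, 22 of 24 did so. Alternatives were DESeq2 1.42.0 size factors and Wald test, limma 3.58.1 voom with quality weights, library totals, no filter beyond 1 count, only the groups compared, replicate blocks and left-out libraries. Others left out the libraries that stood apart, in the fit of all groups or with only the groups compared. The latter was added after the data had been seen.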

Additional observations from a re-analysis of the deposited data

Results flagged for a closer look

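Of 32 sets of 6 libraries (4 genes in 8 groups), 1 held a library far from the others: Fasn in SAT LAE replicate 2 stood at 22179 CPM, where the other 5 libraries of that group ran up to 13132 CPM. Chance alone gives about 1 such library in 20 groups. The same library had the highest Acly (4954 CPM), Acaca (2436 CPM) and Scd (34327 CPM) of its group. Without it the late against early log2 difference of Fasn in exercised SAT was 0.38 in place of 0.63, and that of late exercise against control 0.48 in place of 0.74; neither passed with or without it.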

How the results depend on the processing

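The higher level of all 4 enzymes in VAT passed under every alternative fit and every left-out library, with and without exercise (32 settings each), and so did the higher late Acly in VAT of exercised rats (21 settings). The number of members called late against early in exercised VAT was 3. It became 1 with no filter beyond 1 count and, in the fit of 4 groups, without the libraries that stood apart. It ran from 1 to 3 over left-out libraries. Fasn there ran from 0.56 to 0.76 on the log2 scale and Acaca from 0.50 to 0.71 over the latter. In exercised SAT the number was 0 and became 1 (Acly) without the libraries that stood apart, in the fit of 4 groups and in that of only the groups compared.

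Signs turned for some values that passed in no fit, and the cause was not tested. Without the libraries that stood apart, these were late against early Scd in exercised SAT (0.28, and 0.29 with only the groups compared) and VAT (-0.009 and -0.002), early exercise Acaca in VAT (-0.003 in both), and for Acaca the SAT interaction (0.43) and the late depot by exercise interaction (-0.21). With limma voom they were late against early Fasn in sedentary SAT (0.12), early exercise Acly in SAT (0.014), early exercise Acaca in VAT (-0.039), the SAT interaction of Acaca (0.082) and its depot by exercise interaction (-0.047). Library totals gave -0.017 for early exercise Scd in SAT. The replicate block gave early exercise Fasn (-0.017) and Scd (-0.215) and late exercise Acaca (-0.047) in SAT, and the block for the rat gave depot by exercise values of 0.21 for Acly and 0.36 for Scd. Pairing by number within a depot has no basis in the labels (72 pairs, r from -0.378 to 0.429), and neither block changed a call of a member.

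Left-out libraries turned the sign within these ranges. In SAT, late against early without exercise ran from -0.25 to 0.12 for Fasn and from -0.11 to 0.41 for Acly, and with exercise from -0.16 to 0.47 for Acaca. Early exercise ran from -0.21 to 0.22 for Fasn, -0.33 to 0.15 for Acly and -0.17 to 0.29 for Scd. Late exercise ran from -0.30 to 0.33 for Acaca and -0.001 to 0.59 for Scd, and the interaction from -0.45 to 0.18 for Acaca and -0.01 to 0.58 for Scd. In VAT, Scd ran from -0.24 to 0.039 late against early without exercise, from -0.01 to 0.22 with it, and from -0.006 to 0.28 for late exercise. Early exercise ran there from -0.15 to 0.13 for Fasn, -0.087 to 0.15 for Acaca, -0.43 to 0.01 for Acly and -0.17 to 0.12 for Scd. Between depots, the phase interaction of Acaca ran from -0.22 to 0.15, and the late exercise interaction from -0.29 to 0.24 for Acly and -0.41 to 0.17 for Scd.

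Counts over all genes moved by over 1.5 times between fits. Late against early they ran from 264 to 2849 in sedentary and from 383 to 3410 in exercised SAT, and from 1217 to 2398 in sedentary and 2262 to 3835 in exercised VAT. For late exercise they ran from 0 to 3067 in SAT and from 0 to 200 in VAT. Interactions ran from 0 to 268 for SAT, 0 to 1 for VAT, 0 to 74 for depot by phase and 0 to 672 for depot by late exercise. With the group means kept, r between Scd and Acly was 0.754 in SAT and 0.7 in VAT. The lowest pair was then Fasn and Scd in SAT, with r = 0.497 (rho 0.693). Its r was 0.349 without the 2 libraries farthest from the median of Fasn. Each member had 5166 counts or more in every library, so counting error was small.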
